A study of Mus musculus with 8 samples.

Results

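The 10 genes described here are markers of Kupffer cells, the resident macrophages of the liver: Adgre1, Clec4f, Vsig4, Cd5l, Marco, Timd4, Csf1r, C1qa, C1qb and C1qc. They were taken by gene symbol from a table of 45706 genes measured by RNA sequencing. The table holds the liver of 4 WT C57BL/6J mice and 4 S155A mice, with 1 library per mouse. S155A mice (SA/SA) carry a whole-body knock-in, made by CRISPR-Cas9 from a sequenced founder, that turns a serine of PLIN5, a lipid droplet protein, into alanine, which cannot be phosphorylated. All 8 mice were female, 4 months old, kept on chow and fasted overnight before the harvest, so no fed mouse is included. The animal numbers in the labels fall into a low series (replicates 1 and 4, numbered 123 and 89 in WT and 118 and 90 in S155A) and a high one (replicates 2 and 3, numbered 856 and 869 in WT and 830 and 831 in S155A). The labels do not say what the 2 series are, and each holds 2 WT and 2 S155A mice.

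Kupffer cells line the liver sinusoids and take up bacteria, dying cells, iron-loaded red blood cells and lipoproteins from the blood. They depend on signals through CSF1R, the receptor for the growth factors CSF1 and IL-34, and are kept in their tissue state by neighbouring endothelial cells, stellate cells and hepatocytes. Their identity is bound to transcription factors such as PU.1 (Spi1), ID3 and LXRa (Nr1h3), and their best known products include receptors for particles and the C1q subunits that open the classical complement pathway.

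Hepatocytes are named as the cell type in the labels, beside liver. All 10 markers were measured in every mouse, with at least 147 counts per gene and library, and the markers of other liver cells were present as well, so whole liver is taken as the source. The hepatocyte gene Alb was between 63060 and 97390 CPM, the endothelial gene Stab2 between 33.4 and 54.2 CPM and the stellate cell gene Lrat between 5.36 and 15.4 CPM. Markers of recently recruited monocytes were low, with Ly6c2 between 0.130 and 2.88 CPM and Ccr2 between 0.354 and 0.917 CPM. In bulk tissue, fewer Kupffer cells and less RNA per Kupffer cell cannot be told apart.

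Total counts per library ranged from 39709785 to 54540864. CPM is the estimated count scaled to a common library total after TMM normalization, and log2 differences are S155A minus WT. The edited gene Plin5 was at 254, 194, 183 and 194 CPM in WT replicates 1 to 4 and at 457, 276, 192 and 386 CPM in S155A replicates 1 to 4, a log2 fold change of 0.67 (standard error 0.24; edgeR's quasi-likelihood test, adjusted p = 0.993). The counts do not show which codon a transcript carried. S155A replicate 3 stood apart for lymphocyte genes, whose 12 members summed to 1265 CPM in that mouse and to between 13.5 and 32.1 CPM in the 7 others. Most of that sum came from 2 genes of antibody-producing cells, Ighm at 1164 CPM (6.00 to 18.1 CPM in the 7 others) and Jchain at 73.8 CPM (1.22 to 2.07 CPM), and the 10 other lymphocyte genes summed to 27.2 CPM (4.81 to 11.9 CPM).

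Comparing S155A with WT mice asks whether Kupffer cell transcripts of the fasted liver differ when PLIN5 cannot be phosphorylated at this serine. No marker passed the test. All 10 had a log2 fold change above 0, from 0.084 for Csf1r to 1.10 for Marco, with a median of 0.23, where 48.8% of the 14629 genes tested were above 0 and their median was -0.0050. The WT and S155A mice overlapped for each of the 10 markers, whereas 2.30% of all genes tested had no overlap. By edgeR's quasi-likelihood test 0 of 10 markers were called (smallest adjusted p = 0.993, background 0%) and 0 of 10 had an unadjusted p under 0.05 (background 3.40%). DESeq2 and limma-voom also called 0 of 10. The 95% intervals reached from -0.61 to 0.95 for Adgre1 and from -0.23 to 0.77 for Clec4f, so differences of this size could not be detected or set aside with 4 mice per genotype. The median rested on single mice. It was 0.026 without S155A replicate 2, with 6 of 10 markers higher, and 0.48 without WT replicate 4. It was 0.12 without WT replicate 2, with 7 of 10 higher, and 0.39 without S155A replicate 4.

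**Figure D1:**
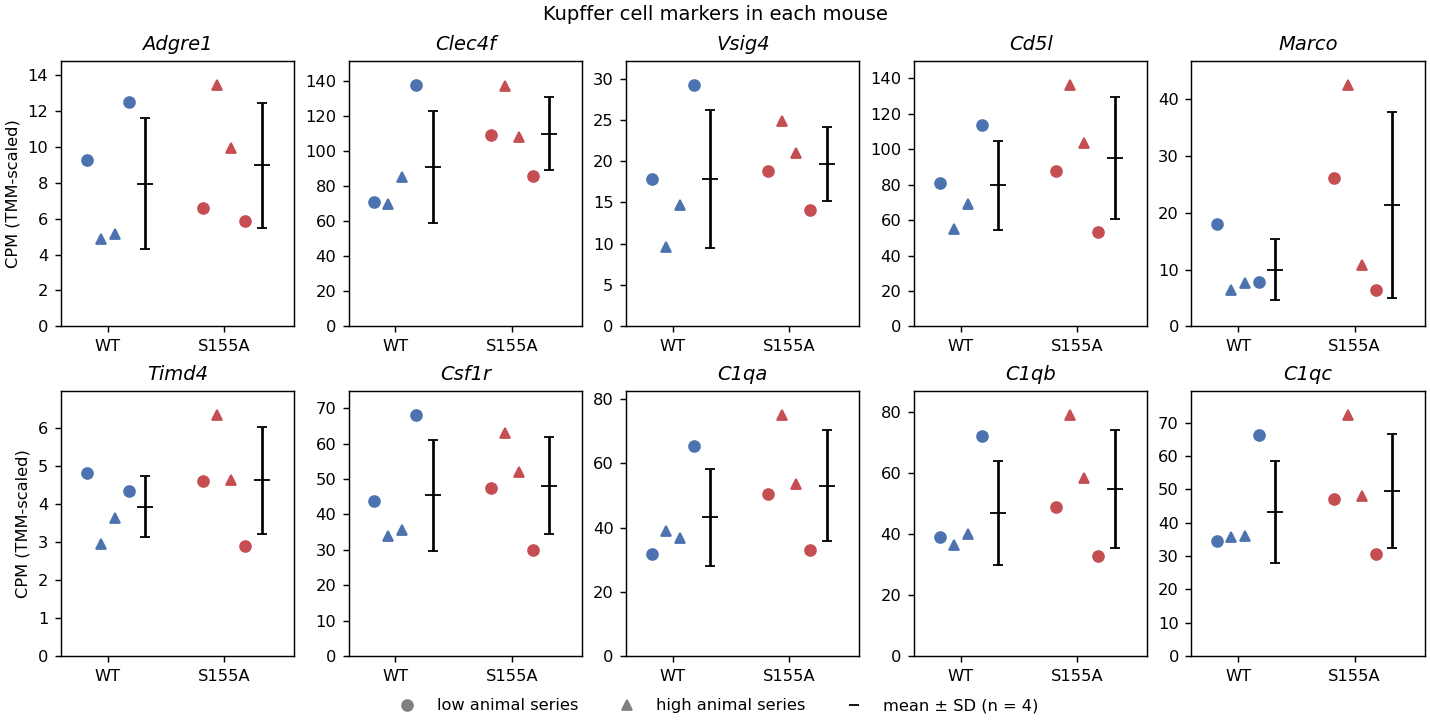
Level of each of the 10 Kupffer cell markers in CPM (vertical axis from 0) in WT and S155A mice. Each point is 1 mouse, circles are the low and triangles the high animal series, and bars give mean ± SD (n = 4). The genotypes overlap in every panel, and within the triangles both S155A mice lie above both WT mice in all 10 panels.

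In GRCm38 with GENCODE release M21, Adgre1 lies on the forward strand at chr17:57358691-57483527, Clec4f on the reverse strand at chr6:83644542-83656187, Vsig4 on the reverse strand at chrX:96247203-96293438 and Timd4 on the forward strand at chr11:46810800-46844332. Cd5l lies on the forward strand at chr3:87357881-87371073 and Marco on the reverse strand at chr1:120474538-120505024. No other annotated gene overlaps these 6 genes, and the values are counts over their transcripts.

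The markers of the macrophage lineage were examined first. Csf1r, the receptor on which Kupffer cell survival depends, was at 43.8, 33.9, 35.6 and 68.1 CPM in WT replicates 1 to 4 and at 47.5, 62.9, 52.0 and 29.9 CPM in S155A replicates 1 to 4. The highest mouse was WT replicate 4 and the lowest was S155A replicate 4, so both genotypes spanned nearly the same range (log2 fold change 0.084, standard error 0.26, edgeR adjusted p = 0.996, p = 0.80 by a 2-sided exact permutation test). Csf1r lies on chromosome 18 and shares bases with Hmgxb3, read in the other direction, and the sources used here do not give whether reads were assigned by strand. Adgre1, which encodes the macrophage surface protein F4/80, was at 9.25, 4.88, 5.14 and 12.5 CPM in WT mice and at 6.60, 13.4, 9.95 and 5.85 CPM in S155A mice, again in the order of the replicates. In both genotypes 2 mice were high and 2 were low, but the high ones were of the low series in WT and of the high series in S155A. The log2 fold change of Adgre1 was 0.17 (standard error 0.35, edgeR adjusted p = 0.996, exact permutation p = 0.60).

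Among the receptors for particles, Clec4f, a lectin that in the mouse is restricted to Kupffer cells, was the most abundant marker by CPM. Its level was 71.2, 69.9, 85.4 and 137.5 CPM in WT mice and 109, 136.8, 108 and 85.7 CPM in S155A mice. A single WT mouse reached the highest S155A mouse, and the 3 other WT mice lay below the lowest S155A mouse (log2 fold change 0.27, standard error 0.23, edgeR adjusted p = 0.993, exact permutation p = 0.343). Vsig4, a complement receptor that binds C3 fragments and helps clear circulating bacteria, was at 17.9, 9.63, 14.7 and 29.2 CPM in WT mice and at 18.8, 24.8, 21.0 and 14.0 CPM in S155A mice. WT mice covered a wider range than S155A mice for Vsig4, whose log2 fold change was 0.14 (standard error 0.30, edgeR adjusted p = 0.996). Timd4, a receptor for phosphatidylserine on dying cells that marks long-resident Kupffer cells, was the least abundant at 4.81, 2.95, 3.64 and 4.34 CPM in WT mice and 4.60, 6.35, 4.65 and 2.91 CPM in S155A mice. Its lowest and its highest mouse were both S155A mice (log2 fold change 0.23, standard error 0.25, edgeR adjusted p = 0.993).

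Marco, a scavenger receptor for bacteria and particles that varies between Kupffer cells of different lobular positions, had the largest difference and the largest spread of the 10. It was at 18.0, 6.44, 7.66 and 7.80 CPM in WT mice and at 26.1, 42.4, 10.7 and 6.41 CPM in S155A mice. The 2 highest mice were S155A replicates 2 and 1 and the third was WT replicate 1, while the lowest was also an S155A mouse. Means with SD over 4 mice were 9.97 ± 5.38 CPM for WT and 21.4 ± 16.4 CPM for S155A. The fitted change of 1.10 (log2) had a standard error of 0.55 and a 95% interval from -0.12 to 2.32 (edgeR unadjusted p = 0.0718, adjusted p = 0.993, exact permutation p = 0.257). With 1 mouse left out it ran from 0.54 to 1.55. Marco was 6.62-fold higher in the highest than in the lowest of the 8 mice, against 1.97-fold for Clec4f, the steadiest marker by this measure.

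The secreted products came next. Cd5l, which encodes the macrophage protein AIM carried in blood with IgM, was at 80.7, 54.8, 69.2 and 114 CPM in WT mice and at 87.6, 136, 103 and 53.3 CPM in S155A mice. The lowest and the highest mouse were of the S155A genotype (log2 fold change 0.26, standard error 0.29, edgeR adjusted p = 0.993). C1qa, C1qb and C1qc encode the A, B and C chains of C1q, which assemble in equal numbers. The 3 genes lie side by side on the reverse strand of chromosome 4 of GRCm38, within 18675 bases from 136880129 to 136898803, and no other gene of GENCODE release M21 overlaps them. C1qa was at 31.8, 38.8, 36.7 and 65.4 CPM in WT mice and 50.3, 75.1, 53.6 and 32.9 CPM in S155A mice. C1qb was at 39.0, 36.5, 40.0 and 72.2 CPM in WT mice and 48.9, 79.1, 58.3 and 32.9 CPM in S155A mice. For all 3 chains WT replicate 4 was far above the other WT mice, S155A replicate 2 was the highest of all mice, and S155A replicate 4 was the lowest S155A mouse. C1qc was at 34.6, 35.9, 36.0 and 66.3 CPM in WT mice and 47.1, 72.3, 48.1 and 30.6 CPM in S155A mice, with means of 43.2 ± 15.4 and 49.6 ± 17.2 CPM (SD over 4 mice). The log2 fold changes were 0.30 for C1qa, 0.22 for C1qb and 0.20 for C1qc (standard errors 0.27, 0.28 and 0.28, edgeR adjusted p = 0.993 for each).

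The comparison was repeated within each animal series, and the difference had opposite signs in the low and the high series for 9 of 10 markers. In the high series both S155A mice were above both WT mice for 10 of 10 markers, as for 22.7% of all genes tested, with log2 differences from 0.65 for Clec4f to 1.60 for Marco and a median of 0.79. In the low series the difference was below 0 for 9 of 10 markers, from -0.79 for Adgre1 to 0.13 for Marco, with a median of -0.37. Over all genes tested the medians were -0.0092 in the high and -0.0041 in the low series. The sum of the 10 markers was 351 and 577 CPM in the 2 WT mice of the low series and 447 and 295 CPM in the S155A mice beside them. In the high series it was 294 and 334 CPM in WT mice and 649 and 470 CPM in S155A mice. The low series therefore overlapped in this sum, while the high series did not. In the low series both S155A mice were below both WT mice for 1 of 10 markers, Adgre1 (16.3% of all genes tested), and above both for 0 of 10 (16.6%). The full reversal shown by Adgre1, without overlap in either series, was found for 4.76% of all genes tested. A difference above 0 in the high and below 0 in the low series was found for 9 of 10 markers and for 27.2% of all genes tested.

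**Figure D2:**
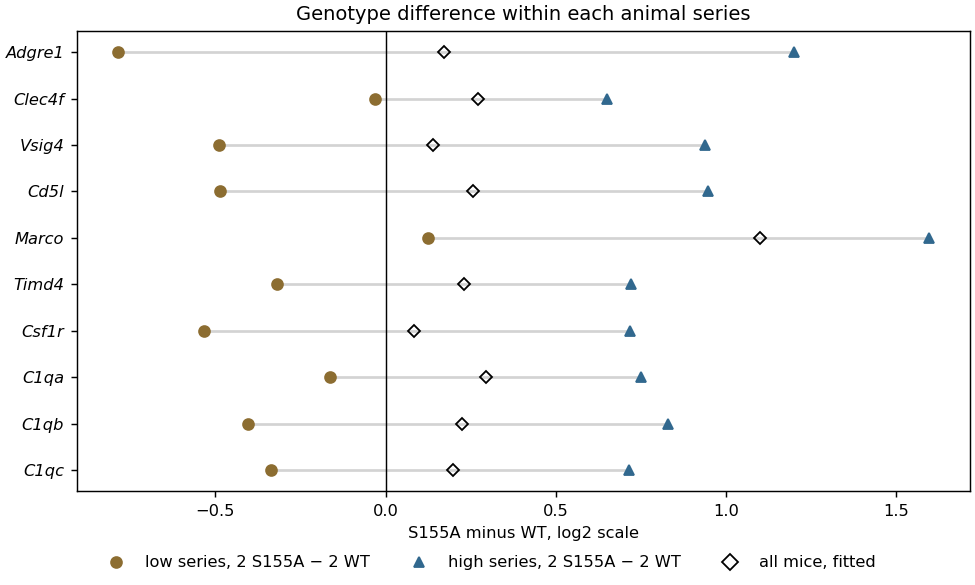
Difference between S155A and WT mice on the log2 scale (horizontal axis) for each marker, in the low series (circles), in the high series (triangles) and fitted over all 8 mice (diamonds). Differences in the high series are above 0.6 for every marker, while those in the low series lie below 0 except for Marco at 0.13.

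The difference between the series was tested as an interaction of genotype and series in edgeR's quasi-likelihood test. Its log2 value was above 0 for all 10 markers, with a median of 1.27, where 49.1% of all genes tested were above 0. It was 2.03 for Adgre1 (standard error 0.32; unadjusted p = 0.000152, adjusted p = 0.203), 1.43 for Vsig4 (standard error 0.40, adjusted p = 0.293) and 1.42 for Cd5l (standard error 0.38, adjusted p = 0.282). It was 1.26 for Csf1r (standard error 0.36, adjusted p = 0.302) and 1.29 for C1qb (standard error 0.42, adjusted p = 0.335). At an unadjusted p under 0.05 there were 7 of 10 markers, all but Clec4f, C1qa and Marco, against 11.1% of all genes tested. At an adjusted p under 0.05 there were 0 of 10 (background 0%). This call depended on the method. DESeq2 called 4 of 10, with an adjusted p of 3.69e-05 for Adgre1, 0.0160 for Cd5l, 0.0327 for Vsig4 and 0.0404 for Csf1r, and edgeR without a filter on low counts called 8 of 10, all but Clec4f and Timd4. In these 2 fits 285 of 14629 genes (1.95%) and 765 of 22439 genes (3.41%) were called. limma-voom called 0 of 10. With any 1 mouse left out, the interaction stayed above 0 for all 10 markers, its median ran from 0.93 to 1.62, between 4 and 9 markers had an unadjusted p under 0.05, and edgeR called 0 of 10. Without S155A replicate 3, the mouse with high lymphocyte genes, the median was 1.44 with 9 of 10 at an unadjusted p under 0.05. The 10 markers are read from the same mice and the same libraries, so they are not 10 independent observations.

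Averaged over genotype, no marker was called between the series. The log2 difference between high and low series ran from -0.24 for Vsig4 to 0.13 for C1qa, with 5 of 10 above 0 (49.2% of all genes tested). In edgeR's quasi-likelihood test 0 of 10 had an adjusted p under 0.05 (smallest 0.802, background 0%) or an unadjusted p under 0.05 (background 12.8%), and DESeq2 and limma-voom called 0 of 10 as well.

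The same mice were high for most markers. S155A replicate 2 was the highest mouse for 7 of 10 markers and among the highest 3 for all 10. WT replicate 4 was the highest for Clec4f, Vsig4 and Csf1r. S155A replicate 4 was the lowest for 6 markers and WT replicate 2 for 3. The coefficient of variation over the 8 mice had a median of 33.3% for the markers. It was 14.1% for the 9481 genes tested whose mean CPM was at least that of the lowest marker.

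**Figure D3:**
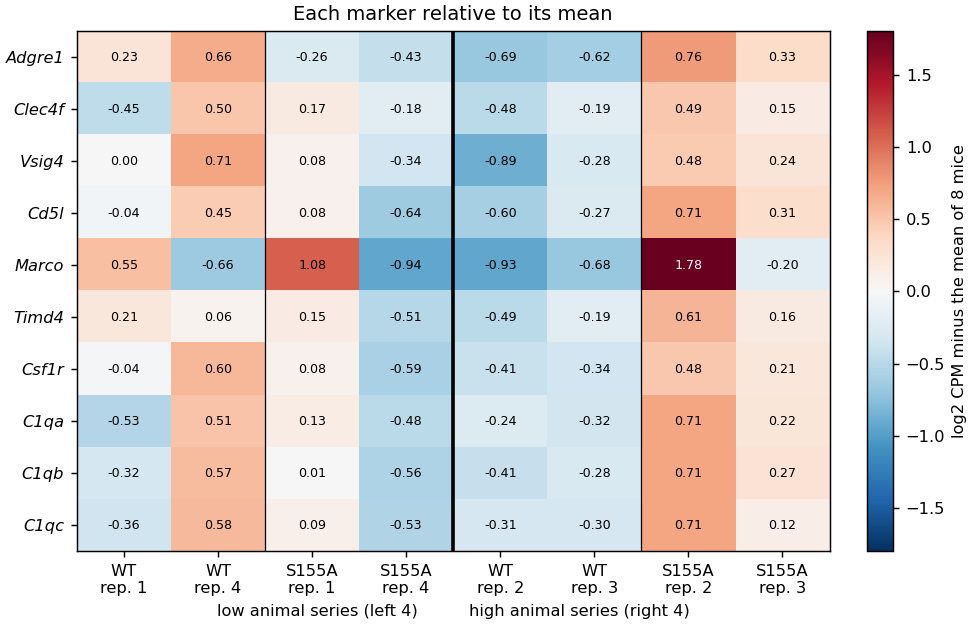
log2 CPM of each marker minus its mean over 8 mice, with mice of the low series in the left 4 columns and of the high series in the right 4. Red cells are above and blue cells below the mean. S155A replicate 2 is above its mean for all 10 markers, WT replicate 4 for all but Marco, and WT replicates 2 and 3 are below it for all 10.

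Pearson's r of log2 CPM over the 8 mice was computed for all 45 pairs of markers, with exact permutation p-values adjusted over the 45. The median r was 0.862, and 32 pairs had an adjusted p under 0.05 (28 pairs by Spearman's rho). The C1q chains were closest, with r = 0.987 and rho = 0.976 for C1qb and C1qc (exact permutation, adjusted p = 0.00307 and 0.00446), and r = 0.958 after the 2 mice farthest from the median of C1qb were left out. Between C1qa and C1qc r was 0.981, and between C1qa and C1qb it was 0.967. Cd5l followed Csf1r (r = 0.964, rho = 0.976, exact permutation, adjusted p = 0.00335 and 0.00446; r = 0.951 without the 2 mice farthest out). These correlations pool mice of both genotypes and series, and the genes of a mouse share a library, its depth and its scaling factor. Pairs of genes outside the markers were not examined, so whether such values are particular to the markers was not tested.

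The pairs with Marco were lower. These 9 pairs had a median r of 0.53, against 0.876 for the 36 pairs without Marco, and 1 of the 9 had an adjusted p under 0.05. That 1 pair was Marco and Timd4 (r = 0.866, rho = 0.929, exact permutation, adjusted p = 0.00992 and 0.00913), with r = 0.816 without the 2 mice farthest out. The pair of Marco and C1qa had r = 0.493 and rho = 0.476 (exact permutation, adjusted p = 0.218 and 0.254), and r was -0.146 without the 2 mice farthest out. WT replicate 4 shows the difference. It was at 72.2 CPM of C1qb and 7.80 CPM of Marco, and S155A replicate 2 was at 79.1 CPM of C1qb and 42.4 CPM of Marco. Expressed as a ratio within each mouse, Marco to C1qb ran from 0.108 to 0.536, a 4.97-fold range. C1qc to C1qb ran only from 0.825 to 0.982, a 1.19-fold range, and the other 7 markers lay in between, from 1.30-fold for C1qa to 2.05-fold for Timd4.

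**Figure D4:**
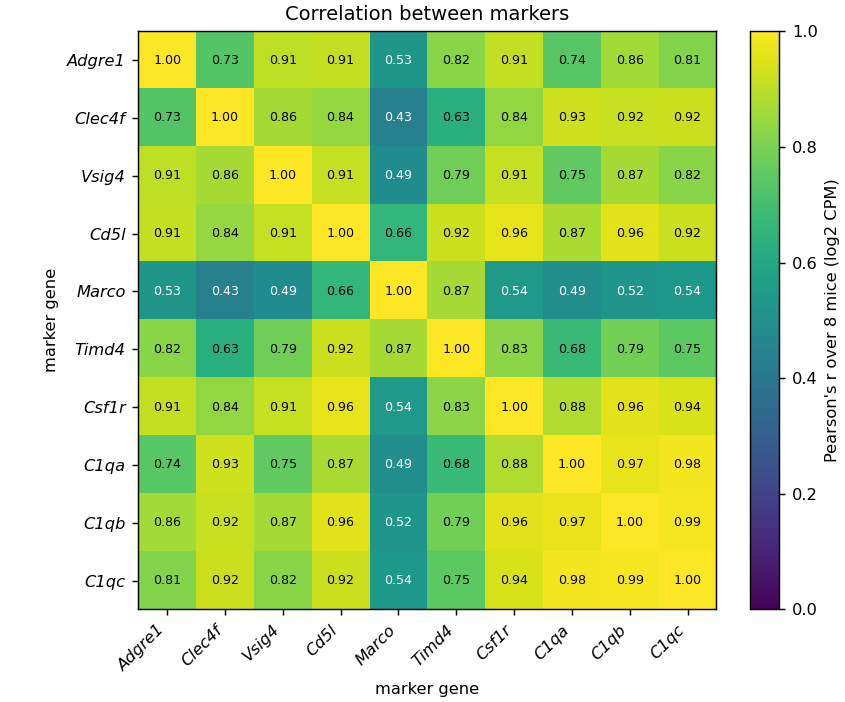
Pearson's r of log2 CPM over 8 mice for every pair of markers, from dark (0) to yellow (1). The block of C1qa, C1qb and C1qc is at 0.967 to 0.987, and the row of Marco is the darkest, with 0.866 for Timd4 as its highest value.

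The promoters of 4 markers are shown because C1qb, Cd5l and Vsig4 varied together over the mice (r = 0.957 for Cd5l and C1qb, 0.913 for Vsig4 and Cd5l) while Marco did not follow them closely. Each is the 250 bases before the RefSeq start of the gene on GRCm38.p6, read in the direction of transcription, at chr4:136886201-136886450 on the reverse strand for C1qb, chr3:87357631-87357880 on the forward strand for Cd5l, chrX:96293439-96293688 on the reverse strand for Vsig4 and chr1:120505025-120505274 on the reverse strand for Marco. Capitals mark the letters of motifs searched on both strands, which were GAGGAA for PU.1 and TGGGAA for RBPJ.

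C1qb: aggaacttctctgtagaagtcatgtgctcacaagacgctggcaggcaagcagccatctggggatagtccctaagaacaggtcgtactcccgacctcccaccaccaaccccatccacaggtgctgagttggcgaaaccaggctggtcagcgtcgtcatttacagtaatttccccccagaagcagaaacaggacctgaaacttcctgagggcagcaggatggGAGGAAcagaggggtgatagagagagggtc
Cd5l: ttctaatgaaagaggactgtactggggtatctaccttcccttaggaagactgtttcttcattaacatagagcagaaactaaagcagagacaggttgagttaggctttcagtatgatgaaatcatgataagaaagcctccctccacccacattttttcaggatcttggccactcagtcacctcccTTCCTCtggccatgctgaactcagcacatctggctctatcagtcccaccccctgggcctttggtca
Vsig4: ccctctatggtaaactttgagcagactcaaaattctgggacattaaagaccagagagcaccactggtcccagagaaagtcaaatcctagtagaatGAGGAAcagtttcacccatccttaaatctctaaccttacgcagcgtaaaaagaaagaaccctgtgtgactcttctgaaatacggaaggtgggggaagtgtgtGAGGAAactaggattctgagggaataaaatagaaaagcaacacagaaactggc
Marco: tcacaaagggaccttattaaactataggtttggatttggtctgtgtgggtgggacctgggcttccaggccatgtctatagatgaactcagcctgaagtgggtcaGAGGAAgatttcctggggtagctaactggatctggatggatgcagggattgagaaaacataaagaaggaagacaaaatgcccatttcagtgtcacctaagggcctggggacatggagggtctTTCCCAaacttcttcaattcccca

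The letters of the PU.1 motif stood in all 4 of these promoters. In C1qb they began 30 bases before the start, in Cd5l 66 bases before it on the other strand, in Marco 146 bases before it, and Vsig4 held 2 copies, the nearer one beginning 53 bases before it. Promoters of 7 markers were searched (C1qb, C1qc, Cd5l, Clec4f, Marco, Timd4 and Vsig4), and those of Adgre1, C1qa and Csf1r were not. Of these 7, 5 held the PU.1 letters, against 23.3% of 32851 promoters of the same length. The RBPJ letters were in 2 of 7, Clec4f and Marco, against 21.6%. An AP-1 motif, TGANTCA, and a TATA box, TATAAA, were in 0 of 7, against 6.75% and 12.4%. No motif overlapped another in the 4 promoters printed. These matches describe letters in a window and not binding.

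To compare levels between genes, CPM was divided by the kilobases of annotated exon of each gene in GENCODE release M21. Per length, the highest were C1qb at 46.7 ± 15.9, C1qa at 46.2 ± 15.3, Cd5l at 42.9 ± 14.3 and Clec4f at 40.7 ± 10.9 CPM per kb (SD over 8 mice). Neighbours among these 4 were not ordered in every mouse, with C1qb above C1qa in 5 of 8 mice and Cd5l above Clec4f in 4 of 8. C1qc followed at 24.0 ± 8.03 CPM per kb, below Clec4f in 8 of 8 mice. Its annotated exons span 1931 bases over 2 transcripts, against 1088 bases for C1qb, so the division by length lowers C1qc more. Before this division the ratio of C1qc to C1qb was between 0.825 and 0.982 in each mouse. Vsig4 was at 12.6 ± 4.21, Marco at 8.15 ± 6.66 and Csf1r at 8.09 ± 2.39 CPM per kb, and Marco was above Csf1r in 3 of 8 mice. Adgre1 at 2.61 ± 1.03 and Timd4 at 1.97 ± 0.518 CPM per kb were lowest. Csf1r and Adgre1 were the only neighbours in this order whose ranges over the 8 mice were apart.

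**Figure D5:**
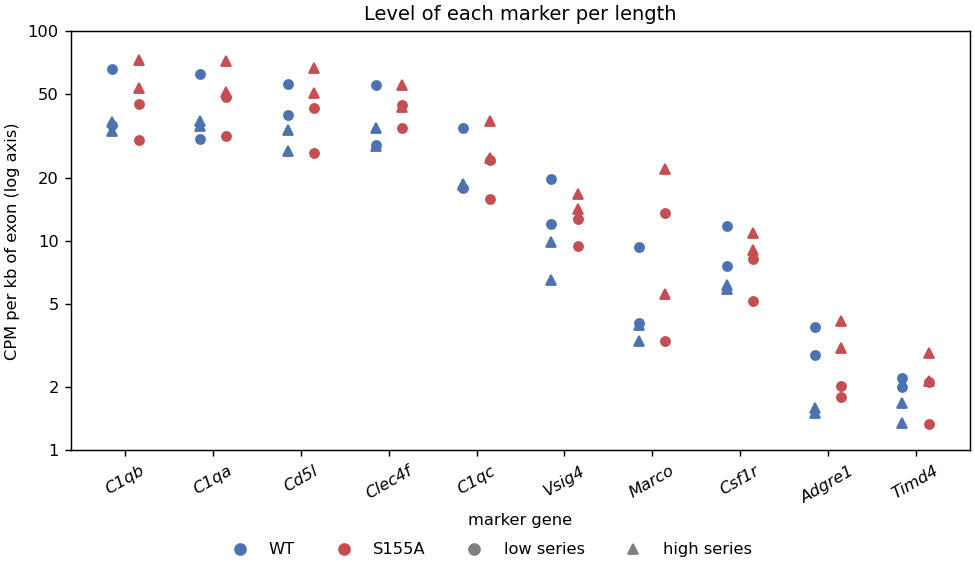
Level of each marker per kilobase of exon (log axis) in each mouse, ordered by the mean over 8 mice. Blue points are WT and red points S155A mice, circles the low and triangles the high animal series. The first 4 genes lie around 40 CPM per kb and the last 2 around 2 CPM per kb.

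Other genes of Kupffer cells and macrophages were read from a list of 23, all of which were tested. By edgeR 0 of 23 were called between S155A and WT mice (background 0%). At an unadjusted p under 0.05 there was 1 of 23, near the 3.40% of all genes tested. This gene was Hmox1, which encodes the heme-degrading enzyme heme oxygenase 1. Hmox1 was between 12.3 and 25.8 CPM in WT mice and between 13.9 and 48.0 CPM in S155A mice (log2 fold change 0.76, standard error 0.34; unadjusted p = 0.0488, adjusted p = 0.993). The median over the list was 0.057 on the log2 scale, with -0.35 in the low and 0.53 in the high series. The split between the series that the 10 markers showed was also seen in 17 of 23 genes of this list, against 27.2% of all genes tested. At an unadjusted p under 0.05 for the interaction there were 9 of 23, all above 0, against 11.1% of all genes tested. At an adjusted p under 0.05 there were 0 (background 0%). The 9 are not independent of each other. Among them were Lyz2, the lysozyme of myeloid cells, with an interaction of 1.42 (adjusted p = 0.210 by edgeR), Cd163, the receptor for haemoglobin bound to haptoglobin, with 1.66 (adjusted p = 0.222), and Cd68, a lysosomal protein of macrophages, with 1.50 (adjusted p = 0.332). Other genes of the list did not show the split. Fcna, which encodes ficolin A, differed by 0.048 in the low and 0.17 in the high series. Slc40a1 was below 0 in both, at -0.30 in the low and -0.30 in the high series, as was Mrc1, at -0.26 and -0.15.

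The transcription factors were mixed. Of 14, 0 passed in either direction between S155A and WT mice, at an unadjusted p under 0.05 as well, and Cebpb had the smallest p (log2 fold change 0.67, standard error 0.31, edgeR adjusted p = 0.993). Spi1, which encodes PU.1, differed by -0.62 in the low and 0.88 in the high series (interaction 1.43, adjusted p = 0.335). Id3 went the other way, by 0.58 and -0.68 (interaction -1.26, adjusted p = 0.419). Nr1h3, which hepatocytes also express, differed by 0.069 and 0.16. Among 13 niche signals 1 had an unadjusted p under 0.05, against 3.40% of all genes tested. It was the chemokine gene Cx3cl1, which was between 0.876 and 1.60 CPM in WT mice and between 0.455 and 0.834 CPM in S155A mice (log2 fold change -0.81, standard error 0.32, edgeR adjusted p = 0.993). The CSF1R ligands Csf1 and Il34 had log2 fold changes of 0.043 and 0.23, and Csf1 stayed between 10.6 and 12.95 CPM over all 8 mice. Of the complement proteins that work with C1q or bind VSIG4, 6 of 8 were tested and 0 had an unadjusted p under 0.05. C1s1, the protease of the C1 complex, had the smallest p (log2 fold change -0.14, standard error 0.11, edgeR adjusted p = 0.993). C3 and C4b, made mainly by hepatocytes, had interactions of 0.64 (adjusted p = 0.316) and 0.88 (adjusted p = 0.288).

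The 5 genes outside the markers whose log2 CPM was most like the mean of the 10 standardized markers over the 8 mice were Gm16174 (r = 0.973), Cd300ld (0.969), Cfp (0.968), Lrrc25 (0.960) and Cd300a (0.956). They were chosen as the highest among the 14629 genes tested, so these values are a description. Cfp encodes properdin, a complement factor made by myeloid cells, and Cd300ld and Cd300a are receptors of the CD300 family of myeloid cells. Cfp was between 22.8 and 38.2 CPM in WT mice and between 20.3 and 52.1 CPM in S155A mice, and it differed by -0.35 in the low and 0.78 in the high series. Gm16174 overlaps Bcl3 on the opposite strand.

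Markers of the other cells of the liver were set beside these values. Monocyte-derived and lipid-associated macrophage genes (14 of 15 tested) had 0 genes at an unadjusted p under 0.05 between S155A and WT mice (background 3.40%). Their median was -0.14 on the log2 scale, and Itgam had the smallest p (log2 fold change -0.50, edgeR adjusted p = 0.993). For the interaction 1 of 14 was at that level, below 0 (11.1% of all genes tested). Sinusoidal endothelial genes (12 tested) summed to between 265 and 371 CPM in WT mice and between 244 and 323 CPM in S155A mice. Of these, Stab1, a scavenger receptor that macrophages also express, had the smallest p and was higher by 0.45 (standard error 0.18, edgeR adjusted p = 0.993), and Bmp2 was lower by -0.55 at an unadjusted p under 0.05. For the interaction, 1 of 12 endothelial genes and 0 of 12 stellate cell genes had an unadjusted p under 0.05 (11.1% of all genes tested). The endothelial gene was Lyve1, which had the direction of the markers, with -0.59 in the low and 1.31 in the high series. The median of the stellate cell genes was -0.37 on the log2 scale, with Lum having the smallest p (-0.65, edgeR adjusted p = 0.993). S155A replicate 2, highest for the Kupffer cell markers, had the lowest sum of both the endothelial and the stellate cell list, at 244 and 383 CPM, and WT replicate 4, also high for the markers, had the highest, at 371 and 649 CPM. The neutrophil list followed the direction of the markers, with medians of -0.41 in the low and 1.18 in the high series, opposite signs for 5 of its 6 genes tested, and sums of 4.64, 10.2, 6.02 and 8.82 CPM in WT and 6.73, 16.8, 11.9 and 3.48 CPM in S155A replicates 1 to 4. Of these 6 genes 1 had an interaction at an unadjusted p under 0.05, S100a8 (2.004 on the log2 scale, edgeR adjusted p = 0.3998). The hepatocyte list also followed the direction of the markers, with medians of -0.14 in the low and 0.41 in the high series. Its sums were 114400, 102000, 94720 and 104900 CPM in WT and 100700, 125900, 130600 and 92090 CPM in S155A replicates 1 to 4. The complement genes had medians of -0.23 and 0.27. Opposite signs held for 6 of 8 hepatocyte and 5 of 6 complement genes (27.2% of all genes tested). An interaction at an unadjusted p under 0.05 was found for 3 of 12 lymphocyte, 3 of 8 hepatocyte and 3 of 6 complement genes (11.1%). The part of these cells in the marker differences was not tested. Lymphocyte genes had 4 of 12 at an unadjusted p under 0.05 between genotypes, all higher (3.40% of all genes tested were at that level in either direction). These were Cd3d, which had the smallest p (log2 fold change 1.06, edgeR adjusted p = 0.993), Klrb1c, Ighm and Jchain, and the 3 with an interaction were Cd3e, Ighm and Jchain. Ighm and Jchain were high in S155A replicate 3 alone. Cd3e was between 0.359 and 1.40 CPM over all mice and the cholangiocyte gene Krt19 between 0.690 and 2.03 CPM. Neutrophil genes (6 of 8 tested) and dendritic cell genes (6 of 7 tested) had 0 at an unadjusted p under 0.05 between genotypes, with the smallest p for Retnlg (log2 fold change 1.02) and Siglech (-1.24), and S100a8 was between 0.376 and 2.85 CPM. The red blood cell gene Hbb-bs, a sign of blood left in the tissue, was between 187 and 1153 CPM in WT mice and between 438 and 544 CPM in S155A mice. Over these lists the smallest p belonged to Alas2 for red blood cells (log2 fold change -0.49), to Spp1 for cholangiocytes (-0.46), to Ass1 for hepatocytes (0.29) and to Cela2a for pancreatic acinar cells. Cela2a was the only acinar gene of 8 that could be tested, and it reached 9.49 CPM in 1 WT mouse (log2 fold change -3.27, standard error 1.45). That mouse was WT replicate 2, of the high series, which was also the lowest mouse for 3 of the markers. Its acinar genes summed to 32.5 CPM, against at most 0.612 CPM in any other mouse. Its cholangiocyte genes summed to 88.3 CPM, against at most 53.7 CPM in any other mouse. The part of this tissue content in the marker differences was not tested.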

How the data were processed

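RNA sequencing of whole liver was analysed for 4 WT and 4 S155A female mice. The values the authors deposited are salmon's estimated counts for each gene, scaled for average transcript length and not for library size. The submitters' processing notes name GRCm38, bcl2fastq, STAR, SAMtools, MultiQC and DESeq2, without roles. The salmon version, the annotation release and the use of strand are not given in the sources used here. Columns were matched to mice by animal number.

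Estimated counts were rounded. Genes were kept with filterByExpr (14629 of 45706) and tested with the quasi-likelihood test of edgeR 4.0.16 after TMM normalization, with Benjamini-Hochberg adjustment over all genes tested and a threshold of 0.05. Fits were S155A against WT, the interaction of genotype and animal series, and series with genotype as covariate. For single markers log2 CPM (prior count 2) was also permuted exactly between genotypes (2-sided), and the smallest p of this exact permutation test with 4 against 4 mice is 0.0286. Intervals of fold changes are 95% and use the degrees of freedom of the fit. Alternatives were DESeq2 1.42.0, limma-voom (limma 3.58.1), 2 other scalings, 2 other filters, a robust fit, a replicate block, a series block and leaving out each mouse. The scripts were tested on simulated data. The smallest chi-square between libraries was 41.7 per gene, so none was a copy. Nothing in the labels says more than that these are separate biological samples.

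Gene coordinates and exon lengths are from GENCODE release M21 (45143 identifiers matched) and promoters from RefSeq (GRCm38.p6). The members and the lists were chosen with earlier results of these data known. Named genes were the 10 members, Plin5, the gene with the smallest p in each of 14 other lists (of which 1 hepatocyte symbol was not analysed here), any called gene, defining genes of other cell types and the 5 genes most like the members. Hmox1, Lyz2, Cd163, Cd68, Fcna, Slc40a1, Mrc1, Spi1, Id3, Nr1h3, Csf1, Il34, C3, C4b, Bmp2, Lyve1, Klrb1c, Ighm and Jchain fall outside this rule in whole or part and were named after their values were seen. A further transcription factor is not reported here.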

Additional observations from a re-analysis of the deposited data

Results flagged for a closer look

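Of 20 groups of 4 mice examined (each of the 10 markers in WT and in S155A mice), 3 held a mouse that stood apart from the others of its genotype, where chance gives about 1 in 20. WT replicate 4 had 72.2 CPM of C1qb, while the other WT mice had 36.5 to 40.0 CPM. The same mouse had 66.3 CPM of C1qc, against 34.6 to 36.0 CPM in the others. WT replicate 1 had 18.0 CPM of Marco, against 6.44 to 7.80 CPM in the others. The C1q chains move together, so the first and second are not separate events.

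Adgre1 differed in opposite directions in the animal series, with both S155A mice below both WT mice in the low series and above them in the high series. The log2 difference between the series was 2.03 (95% interval 1.31 to 2.75). The test of this interaction had an adjusted p of 0.203 in edgeR and of 3.69e-05 in DESeq2. With 1 mouse left out, the smallest adjusted p of any marker in edgeR ran from 0.0849 to 0.477.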

How the results depend on the processing

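The S155A against WT comparison of the markers gave 0 of 10 called in all alternatives, while over all genes DESeq2 called 6 genes and edgeR 0. The markers' median log2 fold change of 0.23 ran from 0.026 without S155A replicate 2 to 0.48 without WT replicate 4. These moves were smaller than the spread between mice (SD 0.476). That spread is larger than the median itself, so it cannot show that the median was stable. For the interaction of genotype and series, the number of genes called was 285 with DESeq2, 1 with limma-voom, 765 without a filter on low counts, and 0 to 40 with 1 mouse left out (40 without WT replicate 4). The number of markers called was 4 with DESeq2, 8 without a filter and 0 elsewhere. For high against low series, 408 genes were called with DESeq2, 514 without a filter and 0 to 111 with 1 mouse left out (111 without WT replicate 3), with 0 markers called in any. The cause of these changes was not tested. Leaving out single mice moved the log2 fold change between -0.086 and 0.48 for Adgre1, between -0.066 and 0.35 for Csf1r, between -0.064 and 0.48 for Vsig4, between -0.0011 and 0.51 for C1qb and between -0.037 and 0.48 for C1qc, and it kept its sign for the 5 other markers. A prior count of 0.5 in the permutation tests changed no call.

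The replicate numbers are not stated to pair animals, and same-numbered mice also share an animal series. Same-numbered mice correlated in their deviations from the genotype means by 0.0565, 0.166, -0.111 and 0.129. WT replicates 1, 2 and 4 correlated best with the S155A mouse of their own number, and WT replicate 3 with S155A replicate 4 (0.14). With a replicate block the genotype comparison called 0 genes and 0 markers (median log2 fold change 0.23), and the interaction called 4 genes and 0 markers. With 4 mice per genotype and 2 of each per series, the spread between mice limits what a test can call.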
